A study of Homo sapiens with 6 samples.

Results

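The keratin family was measured in CAL-27 cells with and without knockdown of XBP-1s. Members were the 54 protein-coding genes named KRT1 to KRT86, letter suffixes included, and they were found by the RefSeq accession of each probe that is not a control spot. Keratin-associated protein genes and keratin pseudogenes were not members. The array carried 57 probes for 52 of these genes, out of 19740 genes with a named probe, and no probe mapped to KRT34 or KRT86. Of the 52 genes, 45 were tested, since a probe of theirs was well above background throughout shCtrl or throughout shXBP-1s. The 7 others (KRT2, KRT12, KRT25, KRT37, KRT38, KRT40 and KRT82) did not reach background on a whole group and have no fold change here.

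CAL-27 is a long-established human line that was derived from a tongue squamous cell carcinoma. Cells stably transduced with an shRNA targeting XBP-1s (shXBP-1s, n = 3) were compared with cells that carried the negative control (shCtrl, n = 3), both in the same line and without further treatment named in the labels. XBP-1s is the transcription factor made from the spliced XBP1 mRNA in the unfolded protein response. The question of the comparison was which mRNAs changed when XBP-1s was reduced. The sources used here do not say whether the transduced cells were pools or clones, nor whether the 3 replicates were separate cultures, so the p-values measure only the spread between these samples, which may be technical.

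Cy3-labelled material from total RNA was hybridised to Agilent arrays of the whole human genome, with 1 colour and 1 array for each sample. The sample labels describe a NimbleGen labelling procedure, whereas the scanner headers give an Agilent array. No spot was saturated, and 82.1% to 84.8% of them exceeded background clearly, depending on the array. The arrays differed in brightness, with a 75th percentile of 687.4 to 761.3 in shCtrl and of 792.0 to 983.4 in shXBP-1s. Levels are therefore given as the log2 signal relative to the 75th percentile of the same array, so that a level of 0 equals that percentile. Because probes differ in brightness, levels are compared between groups for 1 probe and never between probes. The number of arrays limits the precision. The headers give 2 scans, with shCtrl replicates 2 and 3 in scan 1, and shCtrl replicate 1 and all shXBP-1s samples in scan 2.

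The XBP1 probe read 1.88, 1.85 and 1.87 in shCtrl and -0.50, -0.54 and -0.52 in shXBP-1s. This was a log2 fold change of -2.39 (SE 0.04, limma adjusted p = 2.81e-07), so XBP1 mRNA read lower in every library labelled as a knockdown. The probe is annotated to NM_005080, and whether it separates spliced from unspliced XBP1 mRNA was not tested. All 11 listed markers of squamous epithelium were well above background on all 6 arrays, TP63, CDH1 and EPCAM among them. So were 16181 of the 16821 tested genes and all 7 tested leukocyte markers, so presence above background does not identify the cell type.

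Keratins are the intermediate filament proteins of epithelial cells. A filament is built from heterodimers of an acidic type I and a basic type II keratin, and each kind of epithelium expresses its own pairs. KRT5 and KRT14 pair in the basal layer of stratified epithelium, KRT1 and KRT10 in the suprabasal layers of epidermis, KRT4 and KRT13 in those of internal mucosa such as the tongue, and KRT8 and KRT18 in simple epithelium. KRT6A, KRT6B, KRT6C, KRT16 and KRT17 are the keratins of wounded and hyperproliferative epithelium and are called stress keratins here. Other members form the root sheath and the shaft of hair.

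After XBP-1s knockdown, 7 of the 45 tested keratins rose and 0 fell by at least 2-fold with a limma adjusted p below 0.05 (Benjamini-Hochberg over all tested probes). Genes past both limits are termed called. These were the stress keratins KRT6A, KRT6B, KRT6C and KRT17, the basal keratins KRT5 and KRT14, and KRT75, a keratin of the hair root sheath. Over all 16821 tested genes, 2.30% rose and 2.88% fell by the same rule. By the adjusted p alone, 11 keratins were higher and 7 lower in shXBP-1s, against 18.9% higher and 27.5% lower of all tested genes. The groups did not overlap for 26 of the 45 keratins, against 56.5% of all tested genes. The median log2 fold change over the tested keratins was -0.02, and it was -0.04 over all tested genes. The measured changes ran from -0.92 for KRT8 to 4.28 for KRT6A, and by size of change KRT6A was number 7 and KRT6C number 13 from the top of the 16821 genes. In 8 of the 45 keratins the probe passed the background filter through 1 group alone, KRT20, KRT27, KRT28, KRT72, KRT75 and KRT84 through shXBP-1s and KRT36 and KRT77 through shCtrl, and a gene that passes in this way tends to differ. A higher level in every cell and a larger share of cells with a high level cannot be told apart in bulk RNA.

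**Figure D1:**
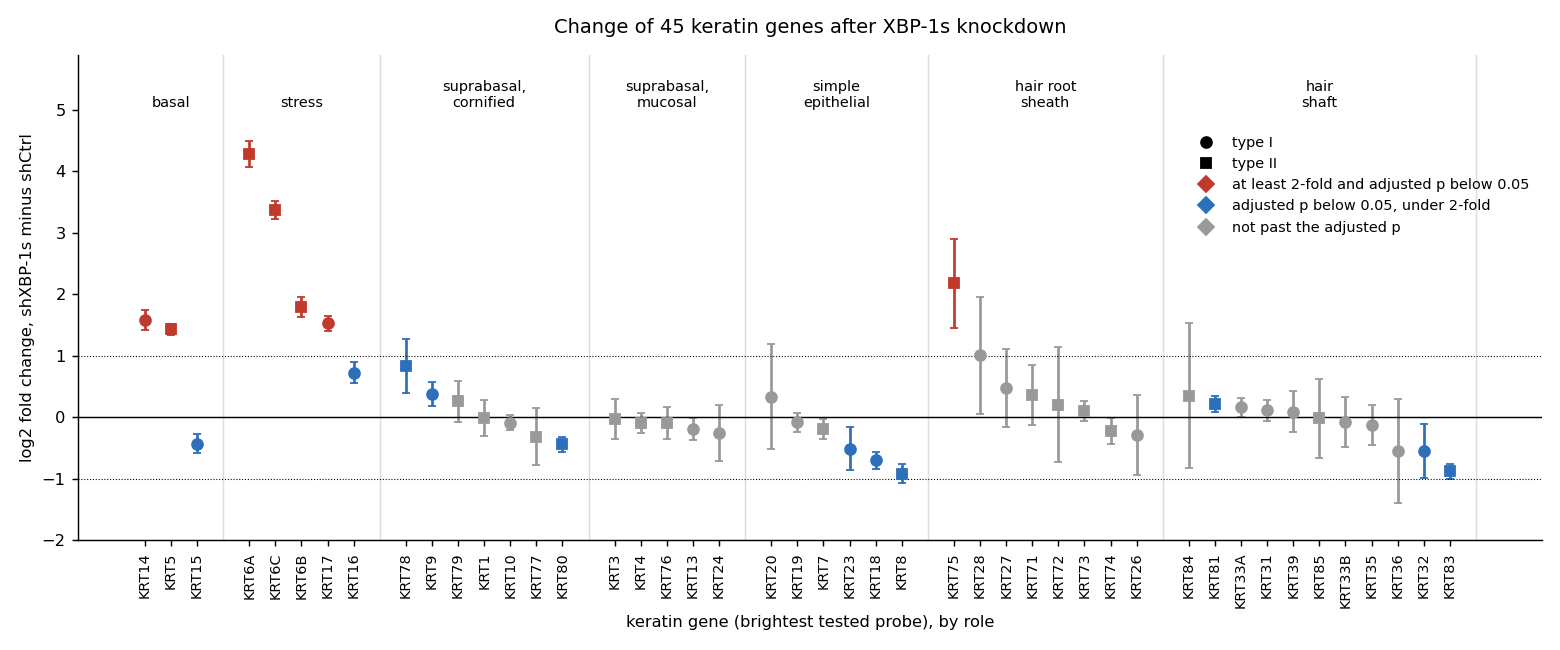
Log2 fold change (shXBP-1s minus shCtrl, n = 3 arrays per group) of the 45 tested keratins by role, with the 95% confidence interval from limma as bars, circles for type I and squares for type II, and dotted lines at a 2-fold change. The 7 red points above the upper line are KRT14, KRT5, KRT6A, KRT6C, KRT6B, KRT17 and KRT75, and no point is called below the lower line. The shCtrl signals of KRT75 were not well above background, and its value turned negative with normexp background correction, as did those of KRT16, KRT78 and KRT9.

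The genes of the type II cluster that rose lay side by side. The promoter sequences at both ends of that run are shown because they bound the stretch of neighbours that changed together. KRT75 and KRT5 are also the only called keratins with a promoter window. The windows are from RefSeq (GRCh38.p14), run 5′ to 3′ on the minus strand from 250 bases before to 50 bases after the annotated start, and cover chr12:52434322-52434621 for KRT75 and chr12:52520345-52520644 for KRT5. The letters of 4 motifs were searched on both strands, and capitals mark a match. They were TGACGTGG of the unfolded protein response element, CCACG of the endoplasmic reticulum stress response element, TGANTCA of the AP-1 site and TATAAA of the TATA box, and every match of the first also holds CCACG.
KRT75: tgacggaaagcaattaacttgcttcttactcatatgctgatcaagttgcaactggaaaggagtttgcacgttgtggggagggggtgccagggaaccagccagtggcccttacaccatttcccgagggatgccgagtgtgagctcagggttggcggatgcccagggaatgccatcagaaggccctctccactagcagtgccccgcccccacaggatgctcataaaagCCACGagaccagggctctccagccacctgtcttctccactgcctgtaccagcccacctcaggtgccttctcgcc
KRT5: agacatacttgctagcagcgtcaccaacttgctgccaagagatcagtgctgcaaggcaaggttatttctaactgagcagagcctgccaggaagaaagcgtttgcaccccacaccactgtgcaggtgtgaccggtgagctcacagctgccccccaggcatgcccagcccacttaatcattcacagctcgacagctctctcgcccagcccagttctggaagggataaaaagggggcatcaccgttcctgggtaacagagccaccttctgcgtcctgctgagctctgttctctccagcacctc

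The KRT75 window held 1 match, a CCACG at positions -24 to -20 before the start, and the KRT5 window held none. The table of promoters had 38 windows for 34 of the 54 keratins. Of the called keratins, 2 had a window, KRT75 and KRT5. The called keratins KRT6A, KRT6B, KRT6C, KRT14 and KRT17 had none, so the counts below do not cover them. CCACG was found in 10 of the 38 windows (26.3%), against 38.1% of all 35116 windows in the table. TGACGTGG was found in 0 of the keratin windows and in 0.729% of all windows, and TGANTCA in 0 and in 7.71%. TATAAA was found in 21 of the 38 keratin windows (55.3%) and in 11.5% of all windows. The keratins with it were mostly those of hair, but the share of hair keratins among the 38 windows was not counted. A match is a run of letters and does not show binding.

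KRT6A (NM_005554), a type II stress keratin, changed more than any other tested keratin. Its level was -1.75, -2.10 and -1.95 in shCtrl and 2.25, 2.37 and 2.44 in shXBP-1s. All 3 shXBP-1s arrays were above the 75th percentile and all 3 shCtrl arrays well below it. The log2 fold change was 4.28 (SE 0.09, limma adjusted p = 4.28e-07), or 19.5-fold, and it was 3.59 with normexp. KRT6C (NM_173086), its close paralog, read -4.96, -5.00 and -4.98 in shCtrl and -1.56, -1.62 and -1.63 in shXBP-1s. The groups were separated by far more than their spread, with a log2 fold change of 3.37 (SE 0.07, limma adjusted p = 2.81e-07), but the size depended on the background correction and was 1.28 with normexp. KRT6B (NM_005555) read 0.06, 0.21 and -0.02 in shCtrl and 1.81, 1.89 and 1.95 in shXBP-1s. Its log2 fold change was 1.80 (SE 0.07, limma adjusted p = 2.16e-06). The 3 KRT6 genes are near-identical in sequence, and whether their probes also bind each other's mRNA was not tested.

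KRT17 (NM_000422), a type I stress keratin that is also found in hair follicles, read 0.38, 0.34 and 0.39 in shCtrl and 1.99, 1.89 and 1.82 in shXBP-1s. The log2 fold change was 1.53 (SE 0.05, limma adjusted p = 1.55e-06), or 2.89-fold. KRT16 (NM_005557), the type I stress keratin usually found with KRT6A, read -3.75, -3.87 and -3.77 in shCtrl and -3.12, -3.05 and -3.04 in shXBP-1s. The groups did not overlap and it was higher by 0.72 (SE 0.07, limma adjusted p = 1.29e-04), which is 1.65-fold and below the 2-fold limit. With normexp the KRT16 value was -0.16 (limma adjusted p = 0.776), or 0.13 relative to the median of all genes in that setting. The limma adjusted p of that setting reached 2.02e-306 for KRT6A from 3 arrays per group. Such a value cannot come from the spread of a single gene, so each p of normexp alone, here and below, is given without weight. After normexp and quantile normalization KRT16 was 0.39. All 5 stress keratins were thus higher by the adjusted p, 4 of them by at least 2-fold, with a median log2 fold change of 1.80, except that KRT16 turned negative with normexp. Of all tested genes, 18.9% were higher by the adjusted p and 2.30% were also past 2-fold. The summed linear signal of the 5 probes, in multiples of the 75th percentile, was 2.66 to 2.76 in shCtrl and 12.7 to 13.2 in shXBP-1s.

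**Figure D2:**
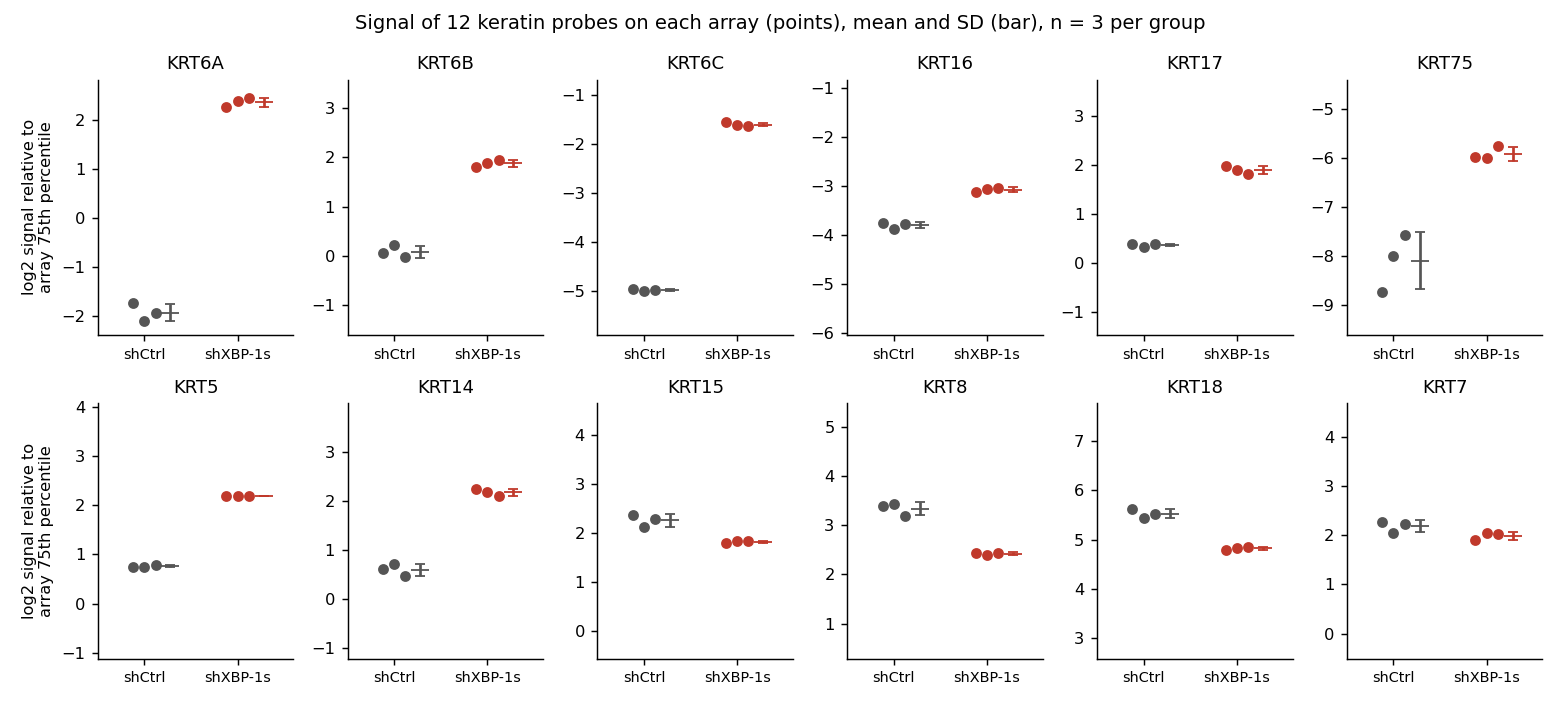
Level of 12 keratin probes on each of the 6 arrays, as log2 signal relative to the 75th percentile of the array, with the mean and SD of each group of 3 as a bar. Each panel has its own range on the vertical axis, since levels of different probes cannot be compared. KRT6A moved from about -1.93 to 2.35, KRT5 from 0.76 to 2.19, and KRT8 from 3.34 to 2.42.

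KRT5 (NM_000424), the type II keratin of basal cells, was among the most tightly measured members. It read 0.75, 0.74 and 0.79 in shCtrl and 2.19, 2.19 and 2.19 in shXBP-1s. The log2 fold change was 1.43 (SE 0.04, limma adjusted p = 1.09e-06), or 2.69-fold. KRT14 (NM_000526), its type I partner, read 0.60, 0.71 and 0.46 in shCtrl and 2.24, 2.18 and 2.10 in shXBP-1s, which gave a log2 fold change of 1.58 (SE 0.07, limma adjusted p = 3.32e-06). KRT15, the other type I keratin of basal cells, went the other way. Its level was 2.36, 2.12 and 2.28 in shCtrl and 1.80, 1.83 and 1.84 in shXBP-1s, so every shXBP-1s array was below every shCtrl array. The log2 fold change of KRT15 was -0.43 (SE 0.07, limma adjusted p = 1.09e-03), or 1.35-fold lower. With normexp it was -0.34, or -0.05 relative to the median of all genes in that setting, and after normexp and quantile normalization it was -0.41.

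KRT75 (NM_004693) is a type II keratin of the hair follicle's companion layer. Its probe read -8.72, -8.00 and -7.57 in shCtrl, where none of the arrays had it well above background, and -5.98, -6.01 and -5.76 in shXBP-1s, where all of them did. Against the lowest signals that were well above background, KRT75 was at least 2.43-fold higher in shXBP-1s (limma adjusted p = 8.62e-04). The probe entered the test through shXBP-1s alone, so that p is not independent of the filter on background. Of the 7 rises this one depended most on the processing, with a log2 value of -0.75 (adjusted p = 0.492) after normexp and 0.18 after normexp and quantile normalization. Among the other 7 tested keratins of the root sheath none passed the adjusted p. KRT28 was past 2-fold but not the adjusted p, with a log2 fold change of 1.01 (SE 0.41, limma adjusted p = 0.0849), and its shCtrl arrays read -5.48, -7.01 and -7.07 against -5.79, -5.45 and -5.30 in shXBP-1s, which overlap.

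The keratins of simple epithelium were lower or not different. KRT8 (NM_002273), the type II keratin of simple epithelium, read 3.39, 3.44 and 3.19 in shCtrl and 2.44, 2.39 and 2.44 in shXBP-1s. The groups did not overlap, and KRT8 was lower by a log2 fold change of -0.92 (SE 0.07, limma adjusted p = 2.99e-05), or 1.89-fold, just short of the 2-fold limit. A second KRT8 probe gave -0.90 (SE 0.06). KRT18 (NM_000224), its type I partner, read 5.62, 5.43 and 5.52 in shCtrl and 4.78, 4.82 and 4.85 in shXBP-1s, which gave a log2 fold change of -0.71 (SE 0.06, limma adjusted p = 5.73e-05), and its second probe gave -0.61. With normexp KRT8 was -0.77 and KRT18 was -0.61 (limma adjusted p = 0.0634 for KRT18), or -0.48 and -0.31 relative to the median of all genes. That p carries no weight, as stated for KRT16. After normexp and quantile normalization KRT8 was -0.88 and KRT18 was -0.68.

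KRT7, a type II keratin of ducts and glands, read 2.28, 2.04 and 2.23 in shCtrl and 1.90, 2.04 and 2.03 in shXBP-1s. Its log2 fold change was -0.19 (SE 0.07, limma adjusted p = 0.0627), and the difference passed the threshold only when shCtrl replicate 2 was left out (-0.27, adjusted p = 0.0154). KRT19, a type I keratin of simple and ductal epithelia, had a log2 fold change of -0.09 with a 95% confidence interval from -0.25 to 0.08. KRT23 was lower by -0.51 (SE 0.15, limma adjusted p = 0.0278), while its second probe gave -0.39 (adjusted p = 0.0879). It no longer passed the adjusted p without shCtrl replicate 3 (0.0712), without shXBP-1s replicate 1 (0.0936), without shXBP-1s replicate 2 (0.0720) or in limma without trend (0.0586), nor in the methods' own per-gene test after adjustment (0.139). KRT20, the keratin of intestinal epithelium, exceeded background clearly on 2 of its 3 shCtrl arrays and had a log2 fold change of 0.34 with an interval from -0.53 to 1.20. Without shCtrl replicate 1 the KRT20 value was 0.79 (adjusted p = 0.0153), and with normexp it was -0.80. With all arrays, 0 of the 6 simple keratins were higher and 3 were lower by the adjusted p, against 18.9% and 27.5% of all tested genes. None of the 3 was lower by 2-fold, and the median of the 6 was -0.35. The summed linear signal of the 6 was 59.0 to 65.8 in shCtrl and 37.4 to 39.3 in shXBP-1s.

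None of the 12 tested suprabasal keratins was called. KRT13, the type I keratin of differentiated internal mucosa, read -2.92, -3.11 and -3.09 in shCtrl and -3.19, -3.20 and -3.31 in shXBP-1s. Its log2 fold change of -0.19 (SE 0.08) did not pass the test (limma adjusted p = 0.0919). KRT4, its type II partner, had a log2 fold change of -0.09 with a 95% confidence interval from -0.26 to 0.07. None of the 5 tested mucosal keratins passed the adjusted p, with KRT3 at -0.03, KRT24 at -0.26 and KRT76 at -0.10. KRT3 changed sign when shCtrl replicate 2, shCtrl replicate 3 or shXBP-1s replicate 3 was left out (0.05, 0.06 and 0.02).

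Of the cornified suprabasal set, KRT1 read -5.44, -5.38 and -5.47 in shCtrl and -5.57, -5.31 and -5.46 in shXBP-1s, and the groups overlapped. KRT10, its partner, also overlapped, with 2.12, 2.07 and 1.99 against 1.95, 1.93 and 2.04, and the log2 fold change was -0.09 with an interval from -0.21 to 0.03. KRT80, a type II keratin of differentiating epithelium, read 3.87, 3.76 and 3.88 in shCtrl and 3.36, 3.41 and 3.41 in shXBP-1s. This was a log2 fold change of -0.44 (SE 0.05, limma adjusted p = 2.47e-04). With normexp KRT80 was -0.31 (limma adjusted p = 0.0703), or -0.01 relative to the median of all genes, and after normexp and quantile normalization it was -0.43. Past the adjusted p but under 2-fold, KRT78 was higher by 0.83 (SE 0.19) and KRT9 by 0.37 (SE 0.08). Both turned negative with normexp, at -0.48 and -0.37, or -0.19 and -0.08 relative to the median of all genes. After normexp and quantile normalization KRT78 was 0.26 and KRT9 was 0.19. KRT78 no longer passed in the methods' own per-gene test after adjustment (0.0662). None of the 7 tested members of this set changed by 2-fold with an adjusted p below 0.05. KRT78 reached 1.00 without shCtrl replicate 3.

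Of the 11 tested keratins of the hair shaft none changed by 2-fold. KRT83 was lower by -0.88 (SE 0.05, limma adjusted p = 8.69e-06) on its brighter probe, at -0.38, -0.31 and -0.36 in shCtrl and -1.17, -1.27 and -1.26 in shXBP-1s, and by -0.38 on its second probe. KRT81 was higher by 0.22 (SE 0.06, limma adjusted p = 0.0157), and it no longer passed without shXBP-1s replicate 2 (0.0787), after normexp and quantile normalization (0.0936) or in the methods' own per-gene test after adjustment (0.0528). KRT32 was lower by -0.56 at an adjusted p of 0.0488, close to the threshold, and its shXBP-1s arrays were spread from -4.15 to -3.30. It no longer passed when any array except shXBP-1s replicate 2 was left out (adjusted p between 0.0737 and 0.127). The 11 genes had a median log2 fold change of -0.02.

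By type, 5 of the 23 tested type II keratins and 2 of the 22 tested type I keratins rose, and the median log2 fold change was 0.09 for type II and -0.08 for type I. The summed linear signal of type II was 42.8 to 43.7 in shCtrl and 44.4 to 46.3 in shXBP-1s, and that of type I was 56.2 to 63.7 in shCtrl and 45.1 to 46.1 in shXBP-1s. Over all tested keratins the sum was 99.2 to 107 in shCtrl and 89.5 to 92.4 in shXBP-1s. The sums weigh each gene by the brightness of its probe.

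Since filaments need a partner of each type, the change of the type II member was set against that of the type I member on the same arrays for 7 of the 8 listed pairs. KRT3 and KRT12 could not be compared because KRT12 was not tested. For KRT5 and KRT14 the difference of the log2 fold changes, type II minus type I, was -0.15 (SE 0.10, exact permutation p = 0.2). For KRT8 and KRT18 it was -0.21 (SE 0.11, exact permutation p = 0.1) and for KRT6B and KRT17 it was 0.27 (SE 0.12, exact permutation p = 0.2). For KRT6A and KRT16 it was 3.56 (SE 0.08, exact permutation p = 0.1), so that KRT6A rose far more than KRT16. The 3 other pairs, KRT1 with KRT10, KRT4 with KRT13 and KRT7 with KRT19, differed by 0.07, 0.10 and -0.11 (SE 0.10, 0.11 and 0.07). The exact test is two-sided, with 3 arrays against 3 it cannot go below 0.1, and over the 7 pairs the smallest adjusted p was 0.35. No pair therefore passed, and a p that cannot pass does not show that partners changed alike.

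**Figure D3:**
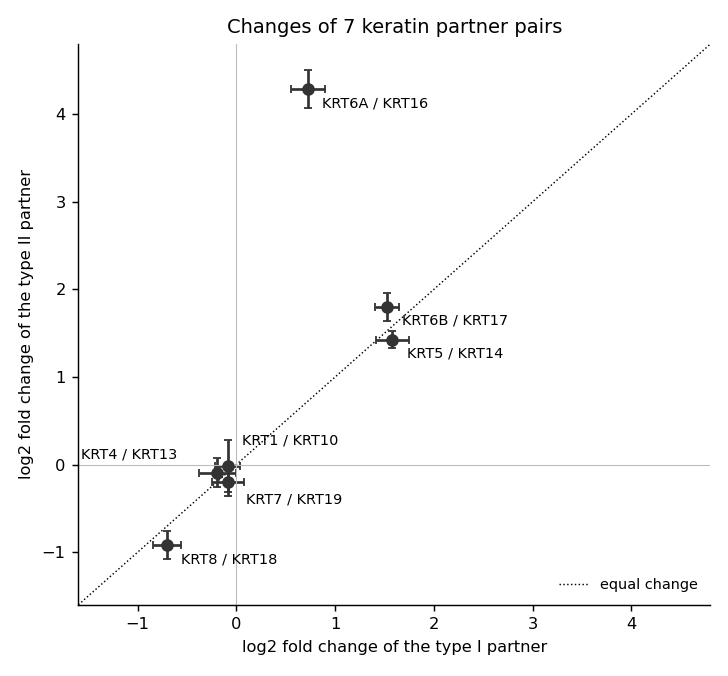
Log2 fold change (shXBP-1s minus shCtrl, n = 3 arrays per group) of the type II keratin on the vertical axis against that of its type I partner on the horizontal axis for 7 pairs, with 95% confidence intervals from limma and a dotted line of equal change. KRT6A with KRT16 lies 3.56 above the line, and the 6 other pairs lie within 0.27 of it.

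Type II keratin genes and KRT18 lie together on chromosome 12 and the other type I genes on chromosome 17, with 27 listed genes on each. On chromosome 12, 5 of 24 tested genes rose, and in the order of RefSeq these were consecutive protein-coding genes, KRT75, KRT6B, KRT6C, KRT6A and KRT5. KRT75 entered the test through shXBP-1s alone and was called in 18 of 21 alternatives, among them the fit with scan as a block. Without KRT75 the run is the 4 genes from KRT6B to KRT5, which were called in all 21. The next gene beyond KRT5 is KRT71, a root sheath keratin at 0.36 (adjusted p = 0.212), and the gene before KRT75 is KRT82, which was not tested. KRT8 and KRT18 are neighbours at the far end of the same cluster and were both lower. On chromosome 17, 2 of 21 tested genes rose, KRT14 and KRT17, which flank KRT16. The gene before KRT14 is KRT9, at 0.37, and KRT15, KRT19 and KRT13 lie beyond it at -0.43, -0.09 and -0.19. Whether probes of neighbouring genes bind each other's mRNA was not tested.

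**Figure D4:**
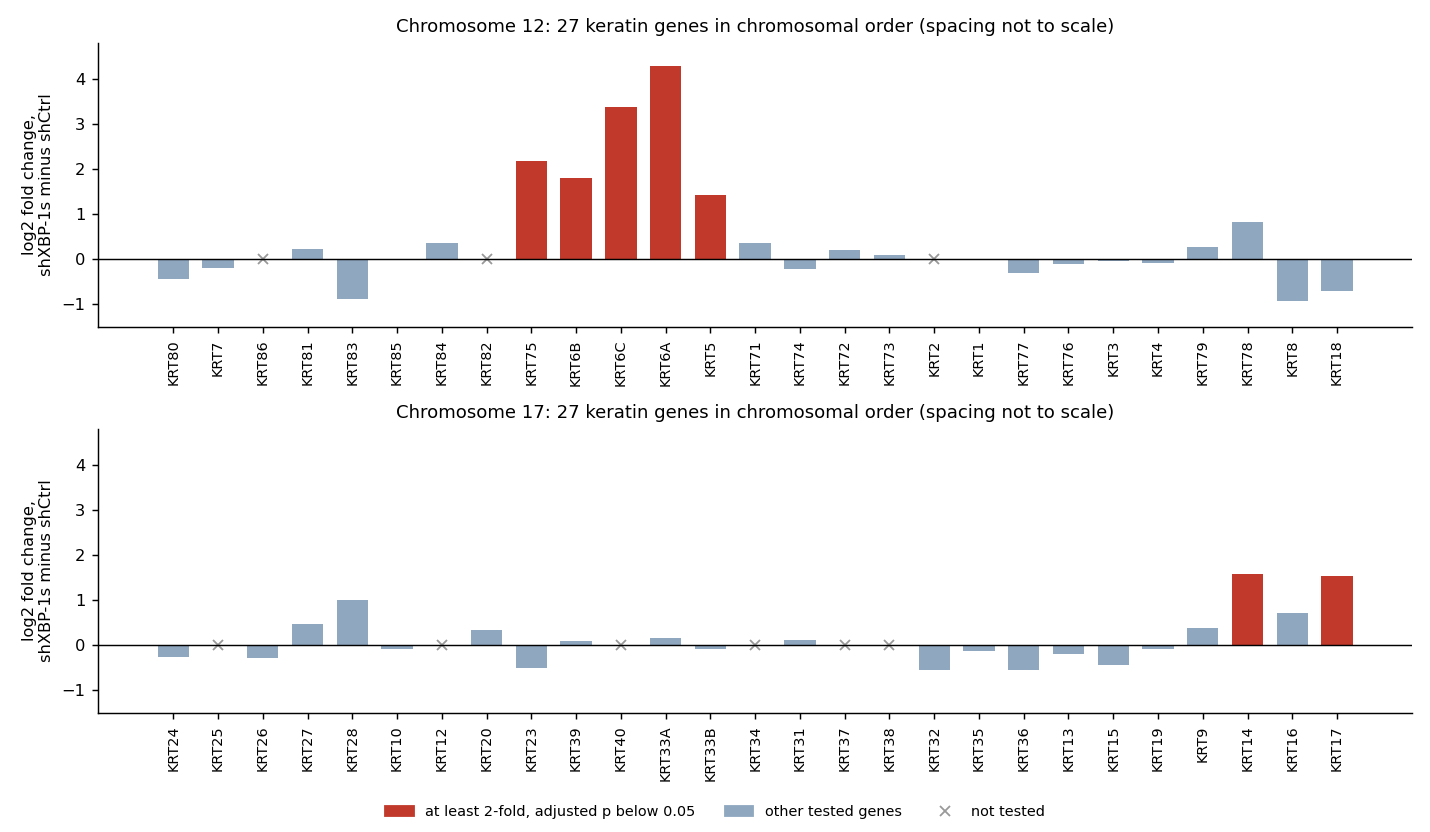
Log2 fold change (shXBP-1s minus shCtrl) of the keratins in chromosomal order on chromosome 12 (upper panel) and chromosome 17 (lower panel), with equal spacing that is not to scale and crosses for genes not tested. The red bars, called at 2-fold and an adjusted p below 0.05, form 1 run of 5 neighbours from KRT75 to KRT5 on chromosome 12, and KRT14 and KRT17 at the end of the chromosome 17 cluster. The bar of KRT75 rests on shCtrl signals that were not well above background.

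The comparison was repeated within a scan. Within scan 2, where shCtrl replicate 1 alone stands for the control, the log2 fold change with scan as a block was 4.10 for KRT6A, 3.35 for KRT6C, 1.83 for KRT6B, 1.57 for KRT14, 1.52 for KRT17, 1.44 for KRT5 and 2.80 for KRT75. KRT75 read -8.72 on that control array, below the lowest signal well above background there (-7.14). In the same fit the log2 fold change was 0.68 for KRT16, -0.97 for KRT8, -0.80 for KRT18, -0.54 for KRT15, -0.48 for KRT80, -0.85 for KRT83 and -0.82 for KRT23, all in the direction of the values without the block. The control arm of these differences is 1 array, which is assumed to vary like the others, so no p is given for it. KRT13 was -0.32, KRT78 0.75 and KRT32 -0.54 in the same fit. Scan 1 held shCtrl arrays alone and gives no within-scan difference.

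**Figure D5:**
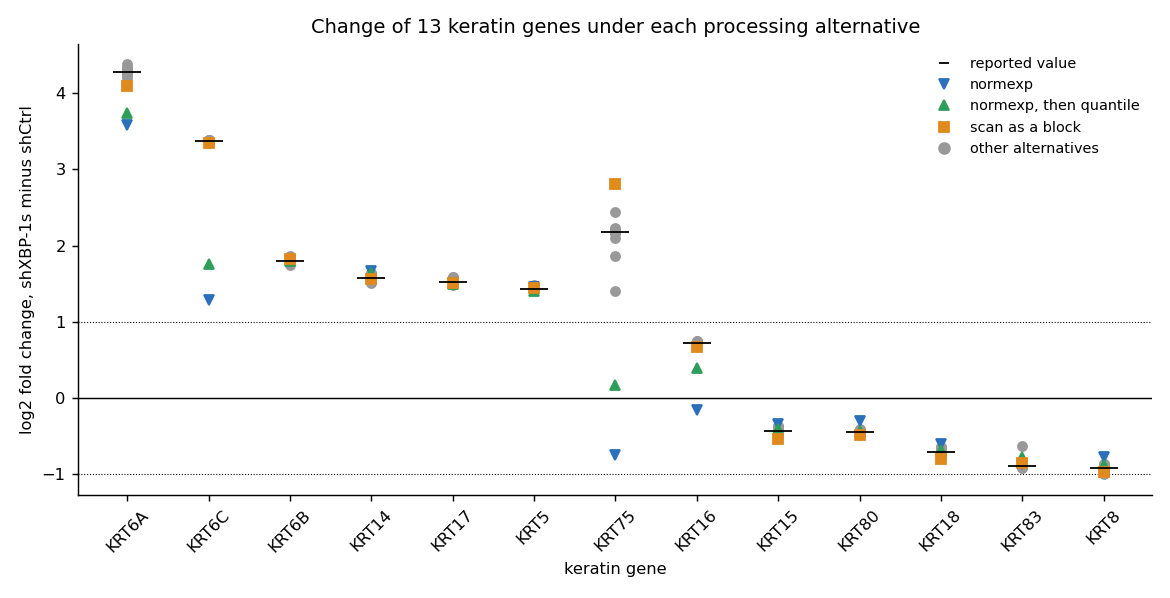
Log2 fold change (shXBP-1s minus shCtrl) of 13 keratins in the reported analysis (black line) and under each of 21 processing alternatives (symbols), with dotted lines at 2-fold. KRT6A, KRT6C, KRT6B, KRT14, KRT17 and KRT5 stayed above 2-fold in every alternative run, whereas KRT75 ranged from -0.75 to 2.80 and KRT16 from -0.16 to 0.75, both lowest with normexp.

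Of 16 listed genes for attachment and bundling of keratin filaments, such as desmosomal plaque proteins and plakins, 13 were tested and 0 were called by their brightest probe. The probes of DST, the dystonin that links keratins to hemidesmosomes, differed by the transcript they are annotated to. Its brightest probe, annotated to NM_015548, was 0.19 higher (SE 0.07, limma adjusted p = 0.0543). The 2 other probes, both annotated to NM_001723, were higher by 1.26 and 1.26 (SE 0.07 and 0.11, limma adjusted p = 6.87e-06 and 7.14e-05) and past the 2-fold limit. On the first of these DST read -0.87, -1.12 and -0.93 in shCtrl and 0.30, 0.30 and 0.26 in shXBP-1s. DSP, the desmoplakin that ties keratins to desmosomes, was 0.16 higher (SE 0.05, limma adjusted p = 0.0374). A second DSP probe gave 0.29 (SE 0.06, limma adjusted p = 6.08e-03). JUP, plakoglobin, was 0.35 higher (SE 0.04, limma adjusted p = 4.01e-04), and PKP3, a plakophilin, differed by 0.05 (adjusted p = 0.556). PPL, periplakin, had a log2 fold change of -0.47 (SE 0.10, limma adjusted p = 5.49e-03). The median over the 13 brightest probes was 0.02.

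Of the 11 markers of squamous epithelium, 9 were higher and 0 lower by the adjusted p, against 18.9% and 27.5% of all tested genes. The median log2 fold change of the 11 was 0.71. CDH1 (0.13, adjusted p = 0.143) and EPCAM (0.01, adjusted p = 0.881) did not pass. DSG3, the desmoglein of basal and lower suprabasal cells, was higher by 1.17 (SE 0.07, limma adjusted p = 1.32e-05) and PERP, a desmosomal membrane protein, by 1.01 (SE 0.11, limma adjusted p = 1.56e-04). By the brightest probe of each gene, these 2 passed the 2-fold limit. DSC3 was higher by 0.81 on its brightest probe and by 1.04 (limma adjusted p = 3.2e-05) on a second one, which is past that limit. TP63, the transcription factor of basal cells, was higher by 0.93 and under that limit. The summed linear signal of the 11 markers was 167 to 180 in shCtrl and 231 to 280 in shXBP-1s. The part of these differences in the keratin results was not tested.

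Markers of cell types other than epithelium were also read. Of 9 fibroblast markers, 6 were tested, LUM (1.94), FAP (1.76) and DCN (1.43) rose, PDGFRB (-1.28) fell, and COL1A1 was lower by -0.63. COL3A1, THY1 and POSTN were not well above background on all arrays of any group. The summed signal of the 6 was 0.977 to 1.07 in shCtrl and 0.710 to 0.725 in shXBP-1s. That sum weighs PDGFRB most, whose mean level was -0.43 in shCtrl and -1.71 in shXBP-1s. Of 8 leukocyte markers 7 were tested and CSF1R (1.04) rose, while PTPRC differed by 0.05 (adjusted p = 0.722), with a summed signal of 5.31 to 7.15 in shCtrl and 4.79 to 4.91 in shXBP-1s. Of 6 melanocyte markers 5 were tested and 0 were called, with MLANA at 0.99 (adjusted p = 0.0280), MITF at 0.71, PMEL at -0.74, DCT at -0.07 and TYRP1 at -0.11, and the summed signal was 0.820 to 0.842 and 0.932 to 1.00. Their part in the keratin results was not tested.

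Among the other intermediate filaments, 14 of 17 listed genes were tested and none rose by 2-fold. SYNM, synemin, fell by 1.14 on the log2 scale (SE 0.07, limma adjusted p = 9.93e-06), and KRT222, a keratin-like gene outside the numbered family, fell by 1.07 (SE 0.10, limma adjusted p = 7.95e-05). KRT222 was no longer called with normexp (-1.14, limma adjusted p = 0.319) or after normexp and quantile normalization, where it was -0.39 and under 2-fold. VIM, the mesenchymal vimentin, was spread widely in shCtrl, with a mean of -1.98 ± 0.44 (SD, n = 3), and differed by 0.21 (limma adjusted p = 0.460), a value that was 0.44 (adjusted p = 0.0421) without shCtrl replicate 1, -0.09 with normexp and -0.25 with scan as a block. By the adjusted p, 2 of the 14 were higher and 5 lower, against 18.9% and 27.5% of all tested genes, and the median of the 14 was -0.06.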

How the data were processed

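Expression was profiled in 3 shXBP-1s and 3 shCtrl samples of CAL-27. The authors deposited scanner tables made by Agilent Feature Extraction (11.0.1.1), whose intensity per spot had already been background-subtracted and detrended. Also deposited was a matrix of log2 values for which the submitters' processing notes name RMA, and which served as an alternative only. Its columns correlated with the log2 intensities of the same arrays at r = 0.9895 to 0.992 over 34127 probes and had a common median of 6.27, and how its values were floored and centred is not given in the sources used here.

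Log2 intensities were centred on each array's own 75th percentile, taken without control spots. Outlier-flagged spots (230 to 377 per array) were dropped and replicate spots averaged. To count as well above background, a probe needed over 50% of its spots there. Testing covered 27624 probes that met this throughout shCtrl or throughout shXBP-1s. It used limma 3.58.1 in R 4.3.3 (lmFit, eBayes with trend, two-sided), and Benjamini-Hochberg adjustment ran over all of these probes. Calls required an adjusted p below 0.05 together with a 2-fold change. Unversioned accessions were looked up in RefSeq (GRCh38.p14), which named 25771 probes. Since the array annotation names hg19, RefSeq served for names, gene order and promoter windows alone. Each gene is given by its brightest tested probe, and 5 keratins had 2 probes. A fold against a group below background is a bound, set by the lowest signals well above background on those arrays.

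The members, their roles, the pairs and the gene lists were chosen with earlier results of these data known. Named are XBP1, called keratins, tested basal, stress, mucosal and simple keratins, KRT1, KRT10 and KRT80, up to 4 called members of each list or, with none called, up to 3 bright ones, and members of small counts. Other genes named were chosen after their values were seen. The test was checked on simulated data. Alternatives were other background corrections and normalizations, the deposited log2 values, other filters, thresholds and tests, replicate number or scan as a block, the mean over probes, and leaving out each array. Normexp (offset 50) was run on median spot signals because mean ones were not among the columns used here.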

Additional observations from a re-analysis of the deposited data

How the results depend on the processing

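With 21 alternatives, KRT6A, KRT6B, KRT6C, KRT5, KRT14 and KRT17 were called higher in every one and KRT75 in 18. KRT75 was not called after normexp, after normexp with quantile normalization (0.18), or when all 6 arrays had to be above background, where it was not tested. Without a minimum fold, 11 keratins were higher and 7 lower. Leaving out 1 array gave 7 to 8 keratins called higher, with KRT28 added without shCtrl replicate 1 and KRT78 (1.00) without shCtrl replicate 3, and 0 called lower. The fit with scan as a block has 1 control array in scan 2, shCtrl replicate 1. KRT84 read -7.99 and KRT75 read -8.72 there, both below the lowest signal well above background on that array (-7.14). The result of KRT84 in that fit is therefore not counted as a call. The 18 alternatives for KRT75 do include that fit, where its control signal has the same limit. XBP1 ran from -2.40 to -2.11.

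Normexp moved the median of all genes from -0.04 to -0.29 and turned the sign of KRT75 (-0.7516), KRT16 (-0.1579), KRT20 (-0.7954), KRT10 (0.0060), KRT78 (-0.4831), KRT9 (-0.3733) and VIM (-0.0896). Its offset is added before arrays of different 75th percentile are scaled, and dim probes lie near that offset. The limma adjusted p with normexp alone reached 2.02e-306 for KRT6A, so the p-values of that setting do not measure the spread of single genes. With quantile normalization after normexp KRT76 was 0.0028. With scan as a block KRT20 was -0.5789, KRT3 0.3059 and VIM -0.2539. Leaving out an array moved KRT1 between -0.0832 and 0.0441, with a sign turned without shCtrl replicate 2 (0.0099) or shXBP-1s replicate 1, and KRT3 between -0.1995 and 0.0602.

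The replicate numbers did not pair the samples, with correlations of deviations between same-numbered arrays of -0.02, 0.12 and -0.12, and with replicate number as a block 7 keratins were called higher and 0 lower. Signal over background limits KRT75, KRT27 and the 7 untested keratins.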

Other observations

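Keratin pseudogenes were not members, but some had probes of their own, and a transcript of a pseudogene shares most of its letters with the parent gene. KRT42P read -2.16, -2.12 and -2.04 in shCtrl and -0.44, -0.49 and -0.56 in shXBP-1s on its brighter probe, or a log2 fold change of 1.61, and 0.67 on a second probe. KRT16P2 read -1.86, -1.75 and -1.57 in shCtrl and -0.04, -0.16 and -0.40 in shXBP-1s, which differ by a log2 fold change of 1.53. This is above the 0.72 of KRT16 itself. KRT18P55 and KRT8P41 had log2 fold changes of -0.65 and -0.72, beside -0.71 for KRT18 and -0.92 for KRT8. KRT17P5 had 0.11 and 0.65 on its tested probes, beside 1.53 for KRT17, and KRT19P2 had 0.15. Which of these signals come from the pseudogene and which from a keratin mRNA was not tested.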
